A study of Mus musculus with 514 samples.

Results

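The telomere maintenance genes are 32 mouse genes whose products bind, lengthen, replicate or protect the ends of chromosomes. They were chosen by gene symbol, and all 32 are among the 55168 named genes of the full-length expression table. The table covers single MII oocytes (Oo) and embryos at the 2-cell (early, E2C, and late, L2C), 4-cell (4C) and 8-cell (8C) stages, from mice with alleles of the nuclear receptor genes Nr5a2 and Esrrb knocked out. It holds 263 libraries in 22 groups, in TPM (transcripts per 1000000), a length-normalised level. Group names give the origin of the deletion: m is maternal, z is zygotic and mz is both.

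At the oocyte stage there were 9 libraries with only wild-type or floxed alleles (Nrpp), 18 heterozygous for Nr5a2 (NrHet) and 12 knockouts of Nr5a2 (NrKO). At E2C there were 21 mz_Nrpp, 29 mz_NrHet, 22 mz_NrKO, 12 z_NrKO and 18 m_NrKO embryos. L2C held 7 embryos heterozygous for both receptor genes (mz_DHet), 10 Esrrb knockouts (mz_EKO), 10 mz_NrKO, 6 knockouts of both (mz_DKO), 7 z_NrHet and 6 z_NrKO. The 4C groups were 6 mz_DHet, 4 mz_EKO, 5 mz_NrKO and 10 mz_DKO, and the 8C groups 21 mz_DHet, 10 mz_EKO, 10 mz_NrKO and 10 mz_DKO. From L2C on, the mz_DHet controls of the mz_NrKO, mz_EKO and mz_DKO embryos thus carried a deleted allele of each gene. Cre driver, strain and age are not given in the sources used here, and which embryos share a mother or litter is not labelled. All p-values therefore measure the spread between these embryos and oocytes, which may be in part technical.

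Telomeres are capped by shelterin, a complex that binds the double-stranded repeat through Terf1 and Terf2 and the single-stranded overhang through Pot1a and Pot1b. They are lengthened by telomerase, in which the reverse transcriptase Tert copies an RNA template held by the H/ACA proteins Dkc1, Nop10, Nhp2 and Gar1. The same H/ACA proteins serve small RNAs that guide pseudouridylation of ribosomal RNA, so their level is not a measure of telomerase alone. The CST complex of Ctc1, Stn1 and Ten1 then supports fill-in of the opposite strand. In mouse cleavage embryos telomeres are known to lengthen, in part by recombination between chromosome ends.

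Nr5a2 and Esrrb bind DNA at motifs that contain AAGGTCA. This motif was searched on either strand in RefSeq promoter windows (GRCm38.p6), over the 250 bases before the annotated start. Windows were found for 24 of the 32 genes. The motif was in the window of 1 of the 24 genes, Nhp2, and in 4.08% of all 32851 windows. The longer form TCAAGGTCA was in 0 of the 24 and in 0.387% of all windows, and the shorter AGGTCA, which lies within both, was in Atrx and Nhp2 (14.0% of all windows). A match of letters is a description and not a binding site. The upstream bases of the H/ACA core genes follow, 5′ to 3′ on the gene's strand and without annotated exon bases, because the 4 genes took different courses over the stages and Dkc1 and Nhp2 changed in the knockouts. Nhp2 lies at chr11:51619523-51619734 on the plus strand, Dkc1 at chrX:75095604-75095853 on the plus strand, Nop10 at chr2:112261676-112261925 on the plus strand and Gar1 at chr3:129831397-129831646 on the minus strand. Capitals in Nhp2 mark the motif as read on this strand, TGACCTT.
Nhp2: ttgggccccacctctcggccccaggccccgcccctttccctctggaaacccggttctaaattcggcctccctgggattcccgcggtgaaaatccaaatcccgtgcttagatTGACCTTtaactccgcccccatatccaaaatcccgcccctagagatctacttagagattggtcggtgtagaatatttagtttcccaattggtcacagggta
Dkc1: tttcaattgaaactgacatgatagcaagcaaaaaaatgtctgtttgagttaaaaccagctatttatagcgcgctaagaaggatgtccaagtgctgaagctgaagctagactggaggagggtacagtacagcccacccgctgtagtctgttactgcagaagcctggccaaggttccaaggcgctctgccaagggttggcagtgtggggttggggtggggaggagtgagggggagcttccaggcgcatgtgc
Nop10: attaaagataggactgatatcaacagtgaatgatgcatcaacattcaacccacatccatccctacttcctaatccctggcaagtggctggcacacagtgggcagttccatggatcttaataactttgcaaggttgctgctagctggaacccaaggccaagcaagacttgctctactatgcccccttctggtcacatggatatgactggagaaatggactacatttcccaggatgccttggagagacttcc
Gar1: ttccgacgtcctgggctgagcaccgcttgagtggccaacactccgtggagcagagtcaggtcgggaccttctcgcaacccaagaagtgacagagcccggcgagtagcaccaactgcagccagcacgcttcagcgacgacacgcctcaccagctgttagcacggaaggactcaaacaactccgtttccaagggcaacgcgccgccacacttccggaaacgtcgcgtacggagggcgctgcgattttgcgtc

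Libraries had 10655 to 15971 genes above 1 TPM, and TPM keep no read depth. Nr5a2 was not lower in the 8C knockouts than in mz_DHet (472 ± 144 TPM): it was 597 ± 241 in mz_NrKO and 778 ± 174 in mz_DKO. Values per gene cannot show whether a targeted exon is absent. Esrrb was 47.8 ± 15.5 TPM in 8C mz_DHet, 18 ± 8.15 in mz_EKO (log2 difference -1.56, limma adjusted p = 0.000277) and 26.8 ± 10.7 in mz_DKO (-0.96, adjusted p = 0.00113). Of the libraries at 8C and E2C that stood apart from their groups, 4 are described first. The library labelled 8C mz_NrKO replicate 1 had 243 TPM of Cdx2, a trophectoderm gene, against 0 to 6.79 in the other 9, and 8-cell markers summing to 6098 TPM against 1769 to 5126. The library labelled E2C mz_NrKO replicate 1 had 11030 genes above 1 TPM against 13198 to 14739, 549 TPM over the 32 genes against 1905 to 2698, and 1253 TPM of Esrrb against 6.85 to 31.7. The library labelled 8C mz_DHet replicate 1 had 8336 TPM over the 32 genes against 4245 to 5674 in the other 20, and 13.4 TPM of Esrrb against 26 to 76.5. The library labelled E2C m_NrKO replicate 2 had 11794 genes above 1 TPM against 13105 to 14935 in the other 17, and 3368 TPM over the 32 genes against 1935 to 2475. At 8C, mz_DKO replicate 1 had 4.98 TPM of Esrrb against 17 to 42.6, and 5268 TPM over the 32 genes against 3602 to 4573. Esrrb was also low in mz_EKO replicate 1, at 2.23 TPM against 8.75 to 25.3. Replicate 1 of each 8C group is dated 23 February 2022, as is mz_DHet replicate 2, with 56.5 TPM of Esrrb. Counts of called members in the main comparisons of their groups are given with and without the first 4 libraries. Marker sums, wider gene lists, the test between stages and the E2C z_NrKO comparison are given with all libraries. So are the 8C comparisons of mz_EKO with mz_DHet and of mz_DKO with mz_NrKO.

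In control oocytes and embryos the 32 genes followed different courses, shown in the heatmap of mean levels by stage. Successive stages were compared with limma on log2(TPM + 1), and a gene was called at an adjusted p under 0.05 and at least 2-fold change. From oocyte to E2C 10 of the 32 rose and 5 fell, 46.9% beside 38.5% of all genes (30.8% rose and 7.71% fell). From E2C to L2C 16 rose and 6 fell, 68.8% beside 66.4% of all genes (32% and 34.4%). From L2C to 4C 4 rose and 0 fell, 12.5% beside 9.25% (3.44% and 5.81%). From 4C to 8C 4 rose and 8 fell, 37.5% beside 44.5% (13.5% and 31%). The members' median log2 difference was 0.42, 0.93, -0.09 and -0.55 in that order, against 0.43, -0.10, -0.07 and -0.36 over all genes. The shift of all genes at the first and last step became 0.19 and -0.07 under median-of-ratios scaling, and the members then split 7 up and 8 down at the first step (36.3% of all genes called) and 5 up and 5 down at the last (44.7%). The groups of the first step, and those of the second, share no date, and the second also sets different control genotypes side by side (mz_Nrpp and z_NrHet), so stage and date cannot be told apart there. Date could be fitted at the last 2 steps, through the dates that L2C shares with 4C and with 8C. The L2C to 4C step then had 0 members called (0.0221% of all genes), and the 4C to 8C step 3 up and 8 down (36.4%). From 4C to 8C the calls of Acd, Atrx, Nhp2, Smg6 and Stn1 ended with date in the fit, and Pinx1, Terf2, Terf2ip and Wrn were called instead. Without 8C mz_DHet replicate 1 that step had 4 up and 8 down (44.5%), the same genes as with it. In whole embryos, fewer cells of a type and less RNA per cell cannot be told apart. Levels of a group are given as its lowest, median and highest TPM, and differences are on the log2(TPM + 1) scale with their standard error (SE).

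**Figure D1:**
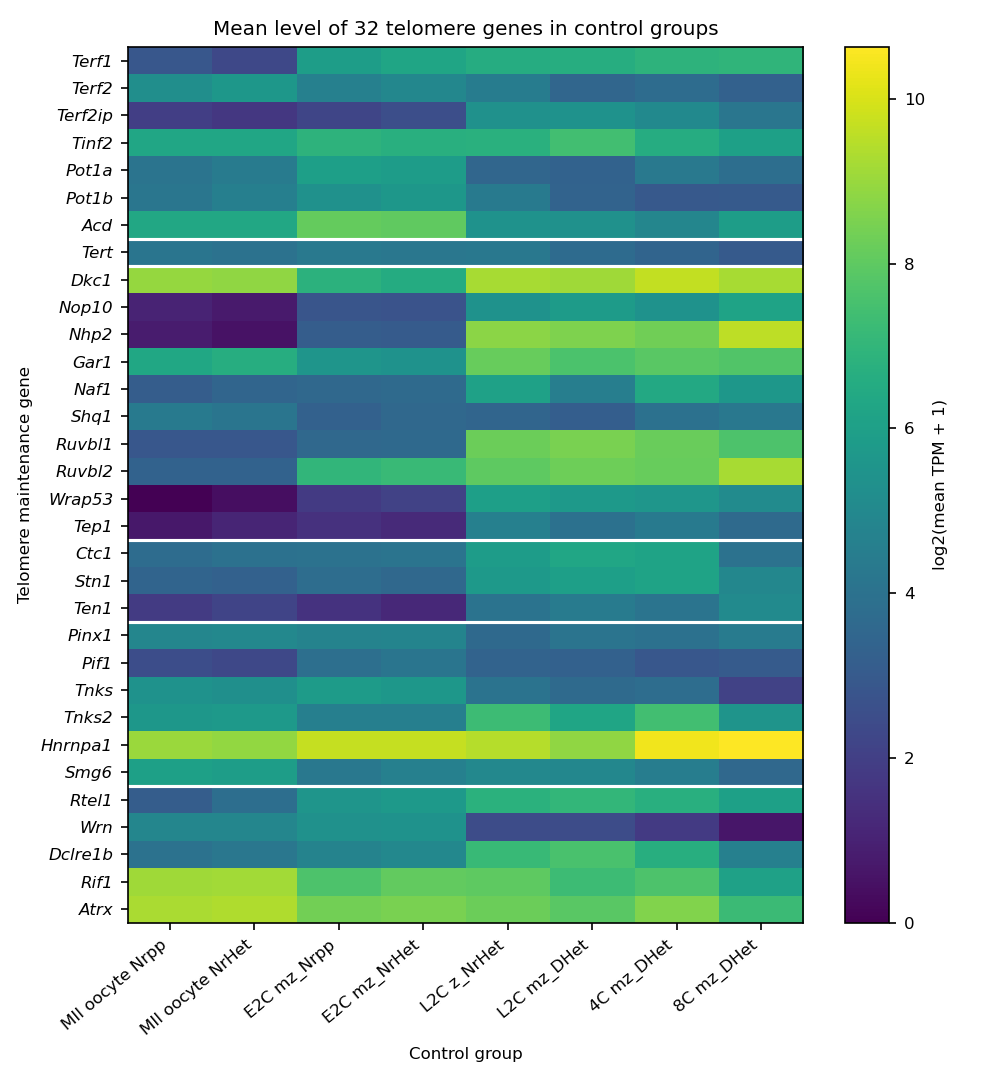
Heatmap of log2(mean TPM + 1) for the 32 telomere maintenance genes (rows, with white lines between roles) in 8 control groups (columns, from oocyte to 8-cell). The H/ACA gene Nhp2 and the assembly ATPase Ruvbl1 are dark (low) in oocytes and E2C and bright (high) from L2C. Acd and Wrn show the opposite order at the E2C to L2C step.

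Nhp2, of the H/ACA core of telomerase, had the largest step of the 32 genes in the fit reported here. Over the alternative settings the E2C to L2C step reached 6.62 for Nhp2 and 6.73 for Wrap53, so the rank depends on the setting. Nhp2 (chr11:51619735-51623714, + strand), a subunit of the H/ACA particle, was at 0, 0.877 and 1.9 TPM in the 9 Nrpp oocytes. It was at 0, 6.57 and 39.8 in the 21 E2C mz_Nrpp embryos and at 317, 406 and 584 in the 7 L2C z_NrHet embryos. The E2C and L2C groups did not overlap, and Nhp2 rose by 6.11 ± 0.35 (adjusted p = 7.74e-33), after a rise of 1.99 ± 0.32 from the oocyte (adjusted p = 4.68e-08). From 4C (275, 292 and 437) to 8C (500.1, 631 and 1432) the difference was 1.15 ± 0.37 (adjusted p = 0.00582), and the groups again did not overlap. This call ended with date in the fit, at 0.68 (adjusted p = 0.00299), under 2-fold, and with a pseudocount of 0.1 TPM, at 1.16 (adjusted p = 0.148). Dkc1 (chrX:75095854-75109777, + strand), the pseudouridine synthase of the particle, took another course. It was at 367, 480 and 664 TPM in oocytes, 58.3, 115 and 192 at E2C and 284, 563 and 1024 at L2C. All E2C values lay below all oocyte and L2C values: Dkc1 fell by 2.21 ± 0.19 (adjusted p = 2.11e-20) and then rose by 2.37 ± 0.20 (adjusted p = 2.09e-20).

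Gar1, which joins the mature particle, was at 49.2, 75 and 119 TPM in oocytes, 29.5, 43.7 and 81.9 at E2C and 227, 249 and 385 at L2C, and rose by 2.62 ± 0.22 at the later step (adjusted p = 1.41e-21). Nop10 (chr2:112261926-112263269, + strand), its smallest subunit, was at 0, 0.722 and 4.25 TPM in oocytes, at 0, 3.97 and 16 at E2C and at 29.4, 38.2 and 63.3 at L2C, and rose by 1.61 ± 0.33 (adjusted p = 1.68e-05) and then by 2.88 ± 0.37 (adjusted p = 6.03e-12). Thus at E2C the median levels of the 4 subunits ran from 3.97 to 115 TPM, with Nop10 and Nhp2 lowest, and at L2C from 38.2 to 563 TPM. The plot of the 4 subunits by stage shows every control library.

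**Figure D2:**
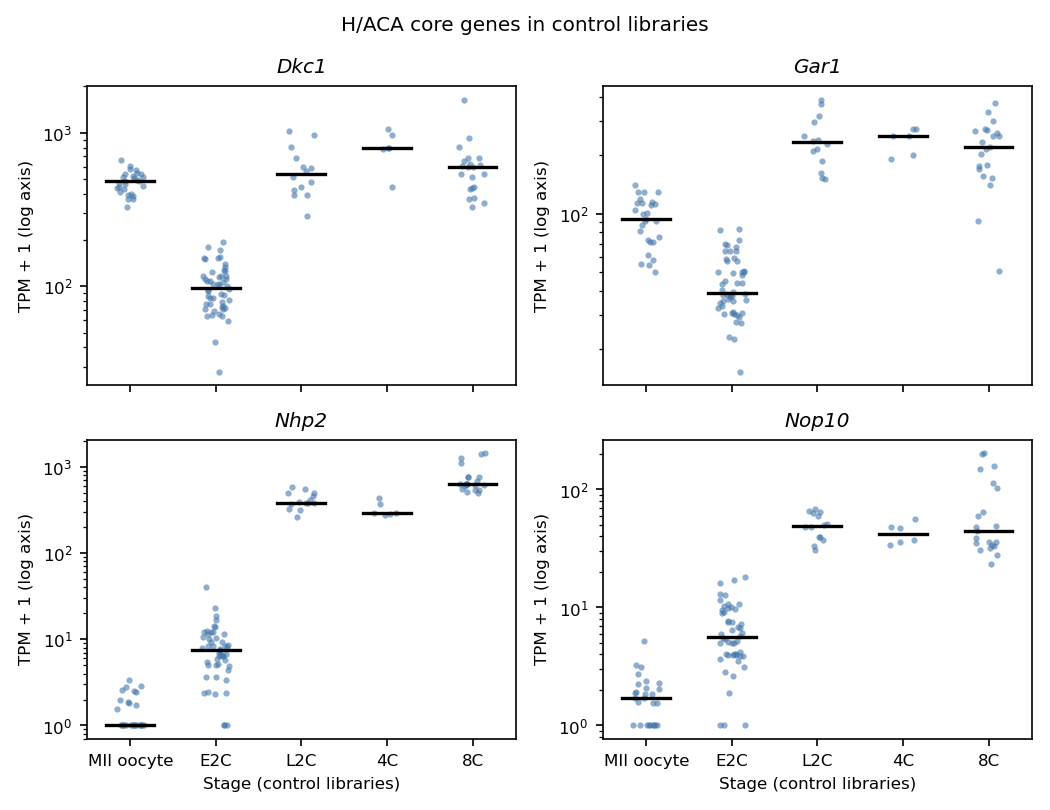
TPM + 1 (log axis) of Dkc1, Gar1, Nhp2 and Nop10 in every control library, by stage; points are single oocytes or embryos and lines are medians. Nhp2 and Nop10 medians lie at 6.57 and 3.97 TPM at E2C, while Dkc1 at E2C lies below all its oocyte and L2C values.

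Of the factors that assemble or carry telomerase, Naf1, Ruvbl1, Ruvbl2 and Wrap53 rose at the same step, and Shq1 was not called there. Naf1 (chr8:66860217-66890564, + strand), which holds the place of Gar1 in the immature particle, was at 0.465, 12 and 22.3 TPM at E2C and 52.9, 62.6 and 101 at L2C, with no overlap, a rise of 2.74 ± 0.34 (adjusted p = 1.96e-12). Ruvbl1, an AAA+ ATPase needed for assembly and part of several chromatin complexes, was at 0.966, 10.1 and 21.7 TPM at E2C and 188, 309 and 406 at L2C, a rise of 4.82 ± 0.27 (adjusted p = 1.71e-33). Its partner Ruvbl2 (chr7:45421760-45438096, - strand) rose a step earlier: it was at 2.83, 10.2 and 13.7 in oocytes and 56.6, 125 and 195 at E2C, with no overlap, a rise of 3.66 ± 0.18 (adjusted p = 9.99e-39). Ruvbl2 then rose by 1.06 ± 0.19 to L2C (adjusted p = 5.39e-07; 0.77, under 2-fold, with mz_NrHet as the E2C group) and by 1.14 ± 0.21 from 4C to 8C (adjusted p = 9.02e-07), to 322, 628 and 776 TPM. Wrap53, which carries telomerase to Cajal bodies, was listed at 0 in all 9 oocytes, at 0, 0 and 13.1 at E2C and at 37.8, 54.7 and 122 at L2C, and rose by 4.81 ± 0.42 at that step (adjusted p = 9e-20). Tep1, a telomerase-associated and vault protein, was at 0, 0.172 and 14.3 TPM at E2C and 1.51, 26 and 53.9 at L2C, a rise of 3.34 ± 0.49 (adjusted p = 1.2e-09). Tert (chr13:73626911-73649843, + strand) was called at no step: its medians were 13.1 TPM in oocytes, 15.6 at E2C, 11 at L2C z_NrHet, 8.36 at 4C and 6.88 at 8C. Shq1, the chaperone that escorts Dkc1, fell by 1.18 ± 0.31 from oocyte to E2C (adjusted p = 0.000612), but between NrHet oocytes and mz_NrHet embryos the difference was -0.63, under 2-fold.

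The shelterin genes did not move together. Terf1 was at 1.15, 6.34 and 12 TPM in oocytes and 10.1, 63 and 119 at E2C, a rise of 3.00 ± 0.27 (adjusted p = 3.58e-19). Terf2 was called at no step, with means of 36.9 ± 11.8 TPM in oocytes and 8.98 ± 5.36 at 8C. Acd (chr8:105695860-105701102, - strand), also called TPP1, which recruits telomerase to the end, was at 41.8, 85.4 and 120.3 TPM in oocytes, 161, 264 and 434 at E2C and 21.8, 42.1 and 65.6 at L2C. E2C lay above both neighbours without overlap: Acd rose by 1.74 ± 0.17 (adjusted p = 2.59e-16) and fell by 2.72 ± 0.19 (adjusted p = 2.21e-26). Pot1a did the same, at 6.56, 15.8 and 27.4 TPM in oocytes, 29.8, 64.8 and 85.2 at E2C and 4.25, 7.86 and 23.8 at L2C. It rose by 1.92 ± 0.29 (adjusted p = 5.06e-09) and fell by 2.69 ± 0.32 (adjusted p = 2.32e-13), and its paralog Pot1b rose by 1.10 ± 0.29 and fell by 1.15 ± 0.32 at these steps (first step 0.70, under 2-fold, under median-of-ratios scaling). Terf2ip, the Terf2 partner Rap1, was at 0, 3.17 and 10.3 TPM at E2C and 15.8, 24 and 99.6 at L2C, a rise of 3.07 ± 0.33 (adjusted p = 3.03e-15). Tinf2, the bridge of the complex, was called at no step and had group means from 65.5 to 169 TPM. From 4C to 8C Acd rose by 1.16 ± 0.20 (adjusted p = 3.5e-07), but with date in the fit the difference was -0.25 (adjusted p = 0.69).

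The 3 CST genes rose to L2C. Ctc1 was at 0, 14 and 39.5 TPM at E2C and 32.1, 58.2 and 87.2 at L2C, a rise of 2.18 ± 0.37 (adjusted p = 1.19e-07). At 4C it was at 43.8, 69.7 and 99.9 and at 8C at 1.45, 16.6 and 28.1, with no overlap, a fall of 2.30 ± 0.40 (adjusted p = 2.78e-07). Stn1 rose by 1.93 ± 0.29 to L2C (adjusted p = 3.72e-09) and fell by 1.26 ± 0.31 from 4C to 8C (adjusted p = 0.00027). That second call of Stn1 ended with date in the fit, at -0.74 (adjusted p = 0.117), and under median-of-ratios scaling, at -0.73 (adjusted p = 0.0376), under 2-fold. Ten1 was at 0, 0.821 and 12.7 at E2C and 7.43, 12.3 and 24.7 at L2C, and rose by 2.89 ± 0.40 (adjusted p = 1.29e-10). From 4C to 8C its difference was 1.17 ± 0.42 (adjusted p = 0.0135), and with a pseudocount of 0.1 TPM 1.25 (adjusted p = 0.223).

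Among the genes of replication and end processing, Rtel1, a helicase that unwinds the telomeric loop, was at 2.02, 7.24 and 20.5 TPM in oocytes and 20, 44.2 and 85.1 at E2C, a rise of 2.57 ± 0.25 (adjusted p = 1.83e-16). Dclre1b (chr3:103800605-103809444, - strand), the nuclease Apollo that resects the leading end, was at 3.46, 25.8 and 64.1 TPM at E2C, 102, 145 and 211 at L2C, 67.7, 95.9 and 156 at 4C and 4.16, 15.2 and 101 at 8C. It rose by 2.65 ± 0.35 to L2C (adjusted p = 4.01e-11) and fell by 2.51 ± 0.37 from 4C to 8C (adjusted p = 4.63e-09). Wrn, the Werner helicase, was at 24.1, 37.1 and 66.1 TPM at E2C and 1.99, 3.38 and 9.64 at L2C, with no overlap, a fall of 2.98 ± 0.22 (adjusted p = 1.46e-24). At 8C its highest mz_DHet value was 3.32 TPM, and it was the member below the level needed for a test there.

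Tnks2, a poly(ADP-ribose) polymerase, was at 4.37, 21.6 and 62.9 TPM at E2C and 64.5, 132 and 306 at L2C. It rose by 2.73 ± 0.33 (adjusted p = 1.37e-12), whereas its paralog Tnks fell by 1.79 ± 0.21 (adjusted p = 5.13e-13). Rif1 (chr2:52072832-52122383, + strand), which controls replication timing and, in human cells, gathers at damaged telomeres, was at 270, 535 and 1018 TPM in oocytes, 150.4, 192 and 283 at E2C, 145, 184 and 293 at 4C and 19.2, 53.8 and 145 at 8C. It fell by 1.40 ± 0.20 at the first step (adjusted p = 1.38e-09) and by 1.77 ± 0.23 at the last (adjusted p = 8.71e-11), where the groups did not overlap. Atrx, which deposits histone H3 variants at telomeres, fell by 1.52 ± 0.21 from 4C to 8C (adjusted p = 5.05e-10). Under median-of-ratios scaling Atrx was at -0.97, under 2-fold, and with date in the fit at -0.85 (adjusted p = 0.0558). Smg6, a nuclease first described as a telomerase-binding protein, fell by 1.93 ± 0.23 from oocyte to E2C (adjusted p = 1.43e-12), without overlap, and by 1.02 ± 0.27 from 4C to 8C (adjusted p = 0.000637). The later call of Smg6 ended under median-of-ratios scaling, at -0.51 (adjusted p = 0.0795), and with date in the fit, at -0.97 (adjusted p = 0.0302), under 2-fold. Pinx1, a telomerase inhibitor, fell by 1.39 ± 0.29 from E2C to L2C (adjusted p = 7.32e-06), and Pif1, a helicase that removes telomerase, rose by 1.19 ± 0.36 from oocyte to E2C (adjusted p = 0.00364), a call that ended under median-of-ratios scaling, at 0.82 (adjusted p = 0.0541). Hnrnpa1 (chr15:103240432-103246692, + strand), an abundant RNA-binding protein that also binds telomeric DNA, was at 393, 450.1 and 554 TPM in L2C mz_DHet and 1013, 1379.5 and 1634 in 4C mz_DHet, with no overlap, a rise of 1.56 ± 0.21 (adjusted p = 1.97e-08). The other 3 members called at the L2C to 4C step were Naf1 (1.88 ± 0.43), Shq1 (1.23 ± 0.43) and Tnks2 (1.21 ± 0.43). With date in the fit the 4 differences were 1.17 (adjusted p = 0.138), 0.31 (adjusted p = 0.956), 0.69 (adjusted p = 0.881) and 0.42 (adjusted p = 0.916), and 0 of the 4 was called.

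Knockout of Nr5a2 in the oocyte was compared with NrHet oocytes. Knockout comparisons used limma with date as a term, on genes reaching 5 TPM in as many libraries as the smallest group holds, and a call needed an adjusted p under 0.05 with no minimum fold. Of the 32 genes, 26 passed that level in oocytes, 31 at E2C, 32 at L2C and 4C and 31 at 8C; Terf2ip, Nop10, Nhp2, Wrap53, Tep1 and Ten1 were below it in oocytes, Ten1 at E2C and Wrn at 8C. In oocytes 0 of the 26 were called (0.212% of all genes were), and 4 had an unadjusted p under 0.05. These were Ctc1 at -0.62 ± 0.19 (adjusted p = 0.15), Dkc1 at -0.21 ± 0.07 (adjusted p = 0.161), Atrx at -0.17 ± 0.06 (adjusted p = 0.223) and Ruvbl2 at 0.62 ± 0.22 (adjusted p = 0.226). Against the Nrpp oocytes, Dkc1 was called lower in NrKO (-0.39, adjusted p = 0.00636): its levels were 367, 480 and 664 TPM in Nrpp and 309, 395 and 549 in NrKO, which overlap. NrHet against Nrpp called 0 of 26 (0.0335% of all genes), with 2 at an unadjusted p under 0.05.

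In E2C embryos without maternal and zygotic Nr5a2, 0 members rose and 2 of 31 fell, 6.45% of the members beside 5.17% of all genes (0.667% rose and 4.5% fell). Under median-of-ratios scaling the split of all called genes moved, with 7.14% called and 365 of 921 higher in place of 87 of 674, and the same 2 members were called lower. The 31 log2 differences had a median of -0.23, against -0.09 over all genes, and 25 were negative. Atrx (chrX:105797615-105929403, - strand) was at 218, 341 and 687 TPM in the 29 mz_NrHet embryos and at 38.1, 259 and 435 in the 22 mz_NrKO embryos. The groups overlapped, 19 of 22 knockouts lay below the control median, and Atrx fell by 0.42 ± 0.12 (adjusted p = 0.0232). Hnrnpa1 was at 539, 742 and 1510.2 TPM in mz_NrHet and 103, 626 and 789 in mz_NrKO. Here 20 of 22 lay below the control median, and it fell by 0.31 ± 0.10 (adjusted p = 0.0491). Of the 29 mz_NrHet embryos, 7 carry the date 11 January, which held no mz_NrKO or m_NrKO embryos. The levels and the counts below the control median are therefore not matched for date, while the log2 differences have date in the fit. Without the library labelled mz_NrKO replicate 1, 1 of 31 was called (6.66% of all genes): Atrx at -0.30 (adjusted p = 0.0437), with Hnrnpa1 at -0.18 (adjusted p = 0.0655). The Hnrnpa1 call also ended without any of mz_NrKO replicates 7, 9, 11, 13, 14, 15, 16 and 19.

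Within the single dates that held both groups, Atrx differed by -0.39 (adjusted p = 0.371) on 1 August, -0.47 (adjusted p = 0.233) on 7 November and -0.46 (adjusted p = 1.00) on 14 November. For Hnrnpa1 the differences on these dates were -0.35 (adjusted p = 0.387), -0.26 (adjusted p = 0.114) and -0.11 (adjusted p = 1.00). All 6 were negative and none was called. With mz_Nrpp embryos as the control, Atrx was at -0.27 (adjusted p = 0.344) and Hnrnpa1 at -0.21 (adjusted p = 0.368). Summed levels of 8 genes that mark the 2-cell stage had a median of 1523 TPM in mz_NrHet (35.9 to 5761) and 218 TPM in mz_NrKO (11 to 1234). These medians are not matched for date, because 7 mz_NrHet embryos are of 11 January, a date without mz_NrKO embryos. Sums ran from 230 to 5761 TPM in those 7 and from 35.9 to 3055 TPM in the other mz_NrHet embryos. With date in the fit, all 8 marker genes were called lower. Their part in the changes of Atrx and Hnrnpa1 was not tested.

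Loss of maternal Nr5a2 alone was compared with the same mz_NrHet embryos. It called 0 of 31 members (0.245% of all genes), with 3 at an unadjusted p under 0.05. Atrx was at 160.2, 245 and 327 TPM in the 18 m_NrKO embryos. Of these, 18 of 18 lay below the mz_NrHet median, which includes the embryos of 11 January and is not matched for date. With date in the fit the difference of Atrx was -0.41 ± 0.13 (adjusted p = 0.132). Without mz_NrKO replicate 1, which shares the fit, Atrx was called here too (-0.41, adjusted p = 0.0148; 1 of 31, beside 3.14% of all genes). Without m_NrKO replicate 2, 0 of 31 were called (0.169% of all genes), with Atrx at -0.40 (adjusted p = 0.200), and in mz_NrKO the same 2 members were called as with it (5.5% of all genes). Zygotic loss alone called 0 of 31 (0% of all genes), with 5 at an unadjusted p under 0.05; for Tert the difference was 0.79 ± 0.24 (adjusted p = 0.878).

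The heterozygous E2C embryos also differed from mz_Nrpp embryos in 1 of 31 members (3.23%, beside 0.268% of all genes, 0.0844% higher and 0.184% lower). Rif1 was at 150.4, 192 and 283 TPM in mz_Nrpp and 153, 243 and 432 in mz_NrHet. The groups overlapped, 28 of 29 heterozygous embryos lay above the mz_Nrpp median, and Rif1 rose by 0.45 ± 0.11 (adjusted p = 0.0379). Within single dates the difference was 0.64 (adjusted p = 0.524) on 1 August, 0.22 (adjusted p = 0.917) on 14 November and 0.50 (adjusted p = 0.0402) on 11 January. Without date in the fit it was 0.42 (adjusted p = 0.134).

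At L2C 0 of 32 members were called in each of mz_NrKO (0.127% of all genes), mz_EKO (0%), mz_DKO (0.141%) and z_NrKO (0.099%), with 2, 1, 2 and 2 at an unadjusted p under 0.05. All 10 mz_NrKO embryos carry the date 8 March 2022 in the labels, with 2 of the 7 mz_DHet. Ctc1, the largest CST subunit, was at 32.1, 58.2 and 87.2 TPM in z_NrHet and 9.59, 31.6 and 51.3 in z_NrKO, with 6 of 6 knockouts below the control median and a difference of -0.99 ± 0.35 (adjusted p = 0.318). In mz_NrKO its difference from mz_DHet was -1.01 ± 0.41 (adjusted p = 0.476). Pif1 was at 9.53 ± 5.49 TPM in z_NrHet and 3.15 ± 1.41 in z_NrKO, a difference of -1.24 ± 0.61 (adjusted p = 0.576). In mz_NrKO the other member was Atrx at 1.01 ± 0.32 (adjusted p = 0.28), and in mz_EKO it was Tinf2 at -0.62 ± 0.27 (adjusted p = 0.734). In mz_DKO Hnrnpa1 differed by 0.79 ± 0.33 (adjusted p = 0.476) and Stn1 by 0.68 ± 0.34 (adjusted p = 0.594).

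At 4C 0 of 32 members were called in each of mz_NrKO (0.675% of all genes), mz_EKO (0%) and mz_DKO (2.58%), with 3, 5 and 2 at an unadjusted p under 0.05. Ctc1 was at 43.8, 69.7 and 99.9 TPM in mz_DHet, 45.9 ± 12.4 (n = 5) in mz_NrKO and 50.9 ± 15.2 (n = 10) in mz_DKO. Its differences were -0.70 ± 0.29 (adjusted p = 0.335) and -0.50 ± 0.24 (adjusted p = 0.354). Tnks2 was at 168 ± 76.8 TPM in mz_DHet and 61.2 ± 50 in mz_NrKO, a difference of -0.99 ± 0.32 (adjusted p = 0.162). Naf1 was at 83.8 ± 33.9 TPM in mz_DHet and 16.3 ± 4.22 in the 4 mz_EKO embryos, and with date in the fit the difference was -0.91 ± 0.38 (adjusted p = 0.797); 3 of the 4 mz_EKO but 1 of the 6 mz_DHet embryos carry the date 22 May 2022. The comparisons at a stage share their controls. In the authors' deposited table, Ctc1 in 4C mz_NrKO has a log2 fold change of -1.14 with a false discovery rate of 0.00322. For Ctc1 in 4C mz_DKO the authors' deposited table gives -0.73 with a false discovery rate of 0.00968, and for Naf1 in 4C mz_EKO the authors' deposited table gives -1.53 with a false discovery rate of 0.0128.

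At 8C, loss of Nr5a2 changed 9 of the 31 members tested and loss of both receptors 9, while loss of Esrrb changed 0. In mz_NrKO Rif1, Tep1 and Nop10 rose and Naf1, Acd, Dkc1, Nhp2, Ruvbl2 and Hnrnpa1 fell. In mz_DKO Rif1, Tep1, Terf2 and Dclre1b rose and Acd, Dkc1, Nhp2, Ruvbl2 and Hnrnpa1 fell. The 9 members were 29% of those tested in each, beside 28.3% of all genes in mz_NrKO and 33.7% in mz_DKO, shares close to the background. Of all genes 14.1% rose and 14.2% fell in mz_NrKO, and 18.9% and 14.8% in mz_DKO. The median log2 difference of the members was -0.02 in mz_NrKO and 0.09 in mz_DKO, against 0.00 and 0.05 over all genes. In mz_EKO limma called 0 of 31 members (0.00919% of all genes), 0 had an unadjusted p under 0.05, and the differences ran from -0.37 for Tnks to 0.40 for Rtel1. Both sets of counts use the same 21 mz_DHet embryos. The plots of levels and of differences at 8C show these genes by embryo and by comparison.

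**Figure D3:**
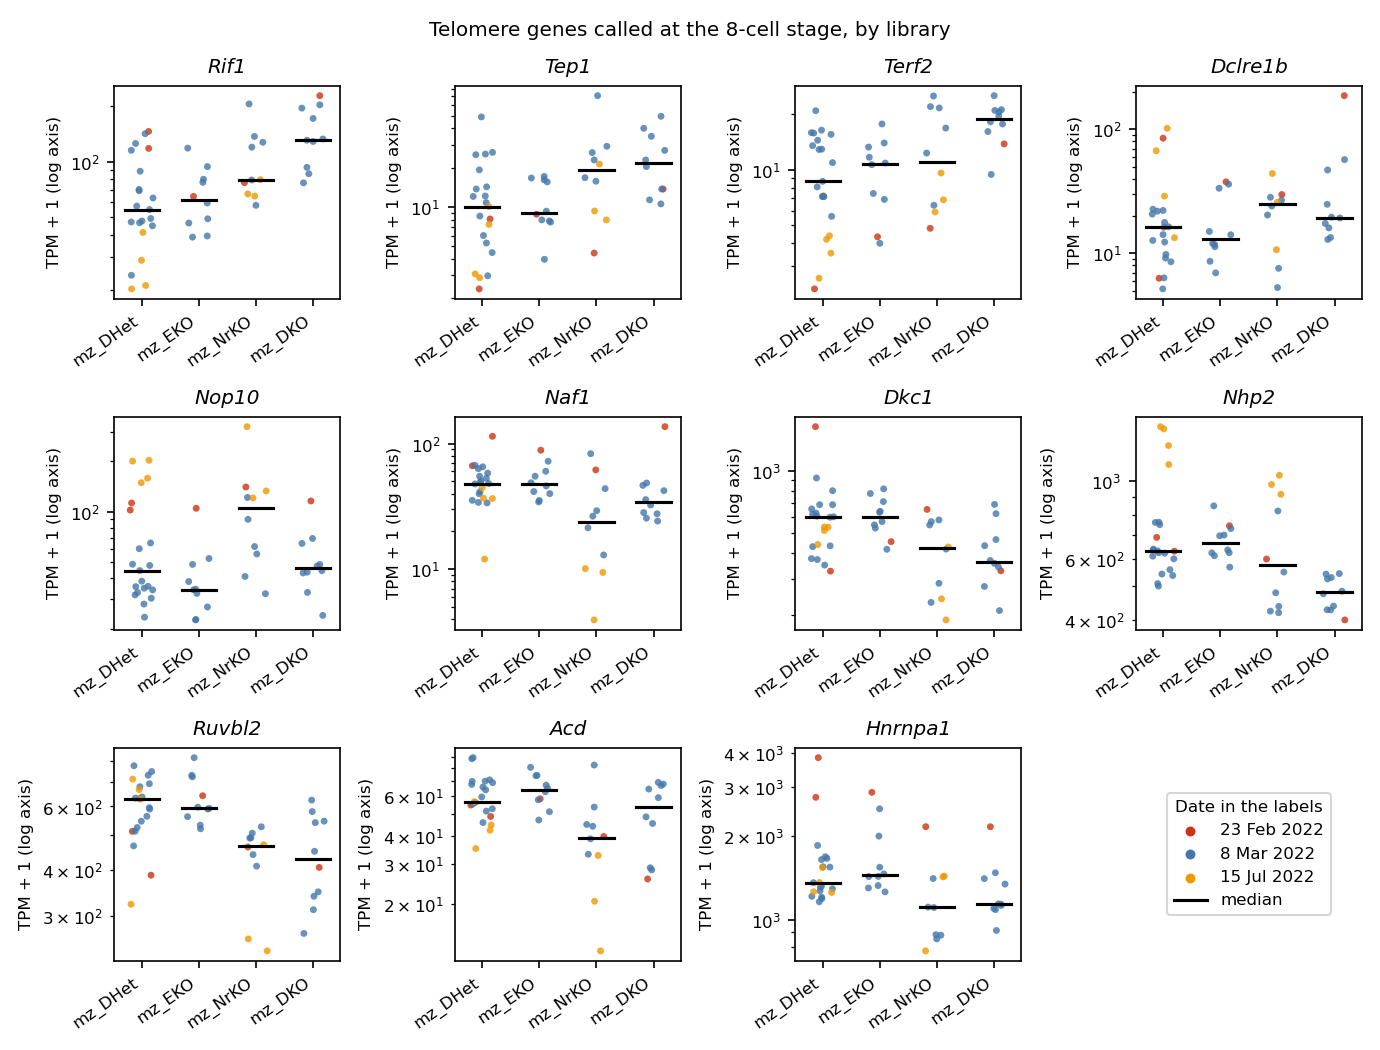
TPM of the 11 members called at 8C in mz_DHet, mz_EKO, mz_NrKO and mz_DKO embryos; each dot is an embryo, coloured by the date in the labels, and lines are medians. Groups overlap for all 11 genes, and for Nop10 and Nhp2 the dates separate embryos of the same group.

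**Figure D4:**
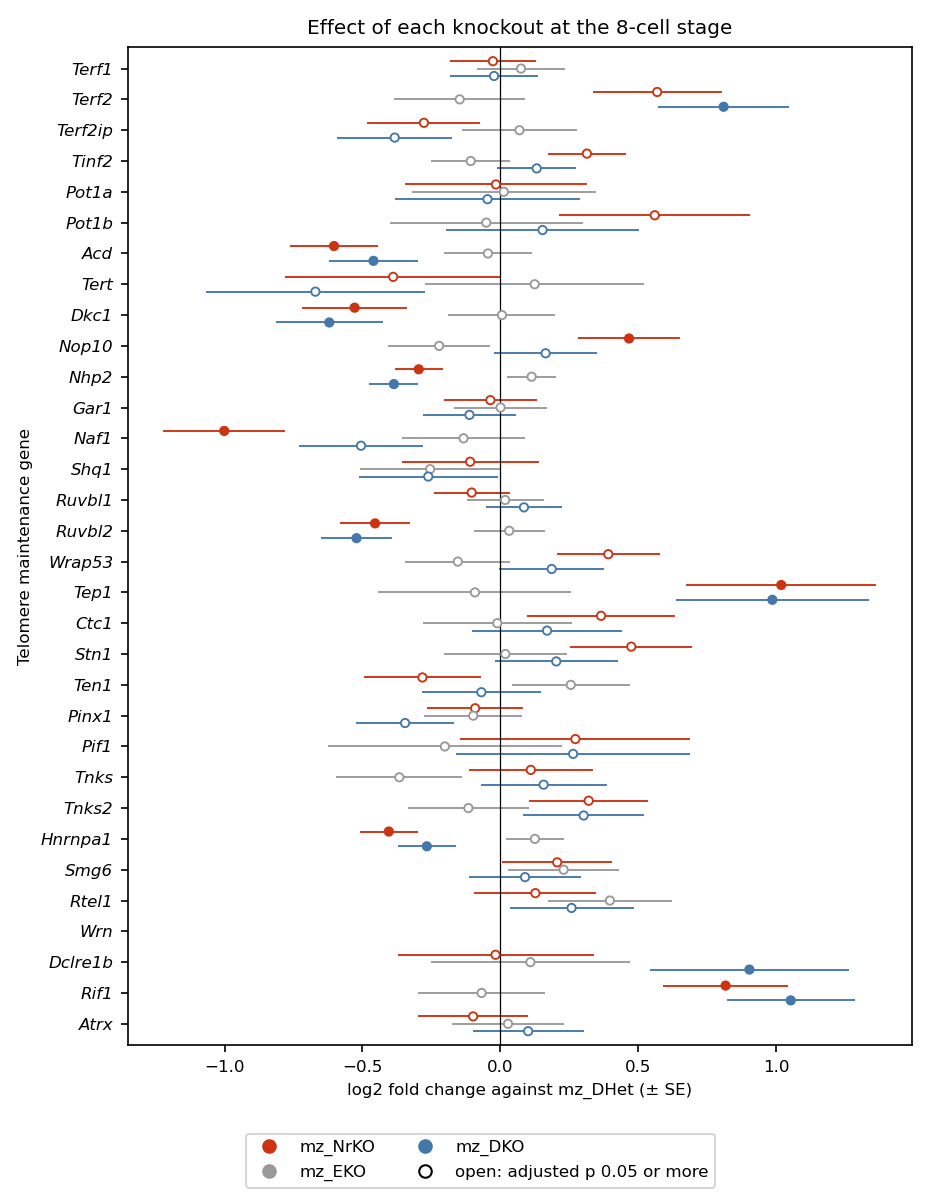
Log2 difference from mz_DHet with its standard error for the 31 members tested at 8C in mz_NrKO (red), mz_EKO (grey) and mz_DKO (blue); open symbols have an adjusted p of at least 0.05. The grey symbols lie between -0.37 and 0.40 and all are open.

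Of the H/ACA particle, Dkc1 and Nhp2 were lower in the Nr5a2 and the double knockout, and Gar1 was called in neither. Dkc1 was at 326, 596 and 1639 TPM in mz_DHet, 417, 599 and 819 in mz_EKO, 189, 423 and 651 in mz_NrKO and 209.8, 362 and 688 in mz_DKO. It fell by 0.53 ± 0.19 in mz_NrKO (adjusted p = 0.0319; 9 of 10 below the mz_DHet median) and by 0.62 ± 0.19 in mz_DKO (adjusted p = 0.0100; 8 of 10). The mz_NrKO call ended without mz_DHet replicate 1 or any of mz_NrKO replicates 6, 7, 8 and 10. Nhp2 was at 500.1, 631 and 1432 TPM in mz_DHet, 567, 666 and 849 in mz_EKO, 419.7, 573 and 1039 in mz_NrKO and 400.1, 479.5 and 543 in mz_DKO. It fell by 0.30 ± 0.09 in mz_NrKO (adjusted p = 0.00813; 6 of 10) and by 0.39 ± 0.09 in mz_DKO (adjusted p = 0.000492; 10 of 10), and the highest mz_DKO embryo lay below the mz_DHet median. Gar1 differed by -0.04 ± 0.17 (adjusted p = 0.898) and -0.11 ± 0.17 (adjusted p = 0.654).

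The level of Nhp2 also differed between the dates in the labels. On 15 July 2022 its mean was 1305 TPM in 4 mz_DHet embryos and 978 in 3 mz_NrKO embryos. On 8 March 2022 it was 618 in 15 mz_DHet, 522 in 6 mz_NrKO and 488 in 9 mz_DKO embryos. Within these dates the mz_NrKO difference was -0.41 (adjusted p = 0.178) and -0.28 (adjusted p = 0.0597), and in mz_DKO, which was not sampled in July, -0.34 (adjusted p = 0.00653) on 8 March. For Dkc1 the mz_NrKO difference was -0.44 (adjusted p = 0.109) on 8 March and -0.90 (adjusted p = 0.0815) on 15 July, and the mz_DKO difference was -0.51 (adjusted p = 0.026) on 8 March.

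Nop10, the third core subunit, went the other way in mz_NrKO. It was at 22.5, 43.6 and 202 TPM in mz_DHet, 21.6, 33.3 and 104 in mz_EKO, 31.4, 104 and 321 in mz_NrKO and 23.1, 45 and 115 in mz_DKO. The difference in mz_NrKO was 0.47 ± 0.18 (adjusted p = 0.0495; 8 of 10 above the mz_DHet median) and in mz_DKO 0.16 ± 0.19 (adjusted p = 0.537). On 8 March 2022 the means were 38.5 TPM in mz_DHet and 66.2 in mz_NrKO, a difference of 0.68 (adjusted p = 0.0243). On 15 July they were 177 (148 to 202) and 191 (119.8 to 321), a difference of -0.03 (adjusted p = 0.972). The call was at the threshold: it ended under leaving out any of 20 of the 31 libraries, namely mz_DHet replicates 1, 3, 4, 5, 6, 8, 9, 10, 14, 15, 16, 17, 19 and 21 and mz_NrKO replicates 1, 2, 3, 5, 7 and 10.

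The assembly factors Naf1 and Ruvbl2 fell. Naf1 was at 11.1, 47.1 and 113 TPM in mz_DHet, 33.4, 46.4 and 87.6 in mz_EKO, 2.96, 22.9 and 82.1 in mz_NrKO and 23.2, 33.2 and 135 in mz_DKO. In mz_NrKO it fell by 1.00 ± 0.22 (adjusted p = 0.000442; 8 of 10 below the mz_DHet median), the steepest fall of the 31, and in mz_DKO it differed by -0.51 ± 0.22 (adjusted p = 0.0755). The 3 mz_NrKO embryos of 15 July 2022 were lowest, at 2.96 to 9.13 TPM against a mean of 31.5 in mz_DHet of that date, a difference of -2.01 (adjusted p = 0.0548). On 8 March the means were 35.2 and 48.4, a difference of -0.67 (adjusted p = 0.0262). Ruvbl2 was at 322, 628 and 776 TPM in mz_DHet, 520, 594 and 817 in mz_EKO, 239, 466 and 527 in mz_NrKO and 267, 429 and 624 in mz_DKO. It fell by 0.45 ± 0.13 in mz_NrKO (adjusted p = 0.00532) and by 0.52 ± 0.13 in mz_DKO (adjusted p = 0.00117), with 10 of 10 embryos below the mz_DHet median in each. Within 8 March the differences were -0.37 (adjusted p = 0.0386) and -0.53 (adjusted p = 0.000578), and on 15 July mz_NrKO differed by -0.86 (adjusted p = 0.152). Exons of Ruvbl2 and the opposite-strand gene Gys1 share 290 bases. Whether the counting used strand is not given, so reads within the shared bases cannot be told apart. Ruvbl1 differed by -0.10 ± 0.14 (adjusted p = 0.618) and 0.09 ± 0.14 (adjusted p = 0.679).

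Tep1 (chr14:50824059-50870560, - strand) was at 1.36, 9.06 and 47.8 TPM in mz_DHet, 2.97, 8.03 and 16.1 in mz_EKO, 3.43, 18 and 70 in mz_NrKO and 9.54, 20.6 and 48.4 in mz_DKO. It rose by 1.02 ± 0.34 in mz_NrKO (adjusted p = 0.0216; 7 of 10 above the mz_DHet median) and by 0.99 ± 0.35 in mz_DKO (adjusted p = 0.024; 10 of 10). The first call ended without mz_NrKO replicate 2, the highest embryo, or replicate 9, and the second without mz_DKO replicate 1, 8 or 10. On 8 March 2022 the differences were 1.12 (adjusted p = 0.0441) and 0.89 (adjusted p = 0.0609), and on 15 July mz_NrKO differed by 1.20 (adjusted p = 0.239). Tert, the catalytic subunit, was at 7.05 ± 4.97 TPM in mz_DHet and differed by -0.39 ± 0.39 (adjusted p = 0.498) in mz_NrKO and -0.67 ± 0.40 (adjusted p = 0.196) in mz_DKO. Wrap53 differed by 0.39 ± 0.19 (adjusted p = 0.113) in mz_NrKO.

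In shelterin, Acd fell and Terf2 rose. Acd was at 34.2, 55.8 and 88.1 TPM in mz_DHet, 46.1, 63.1 and 79.7 in mz_EKO, 11.4, 38.4 and 81.6 in mz_NrKO and 24.8, 53 and 68.2 in mz_DKO. It fell by 0.60 ± 0.16 in mz_NrKO (adjusted p = 0.00287; 9 of 10 below the mz_DHet median) and by 0.46 ± 0.16 in mz_DKO (adjusted p = 0.0214; 5 of 10), and the mz_DKO call ended without mz_DKO replicate 1, 4 or 8. On 8 March 2022 the differences were -0.43 (adjusted p = 0.0735) and -0.34 (adjusted p = 0.101), and on 15 July mz_NrKO differed by -1.12 (adjusted p = 0.102). Exons of Acd and the opposite-strand gene Carmil2 share 479 bases, and such overlaps ran from 44 bases (Nhp2 with Rmnd5b) to 977 (Tinf2 with Gmpr2). Terf2 (chr8:107069400-107096547, - strand), which holds the end in a loop and blocks its joining, was at 1.26, 7.64 and 19.8 TPM in mz_DHet, 2.99, 9.74 and 16.6 in mz_EKO, 3.81, 9.93 and 24 in mz_NrKO and 8.41, 17.8 and 24.1 in mz_DKO. It rose by 0.81 ± 0.24 in mz_DKO (adjusted p = 0.00597; 10 of 10 above the mz_DHet median), with 0.65 (adjusted p = 0.0416) on 8 March, and in mz_NrKO the difference was 0.57 ± 0.23 (adjusted p = 0.0612). Tinf2 differed by 0.31 ± 0.14 (adjusted p = 0.0877) in mz_NrKO. Terf1 (-0.03 ± 0.16, adjusted p = 0.919 in mz_NrKO), Terf2ip (-0.28 ± 0.20, adjusted p = 0.333), Pot1a (-0.02 ± 0.33, adjusted p = 0.978) and Pot1b (0.56 ± 0.35, adjusted p = 0.234) were not called in either knockout.

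Rif1 had the lowest adjusted p of the 31 members in mz_DKO. It was at 19.2, 53.8 and 145 TPM in mz_DHet, 37.7, 61 and 117 in mz_EKO, 56.7, 78.5 and 205 in mz_NrKO and 75.5, 131 and 228 in mz_DKO. It rose by 0.82 ± 0.23 in mz_NrKO (adjusted p = 0.00517) and by 1.05 ± 0.23 in mz_DKO (adjusted p = 0.000285), with 10 of 10 embryos above the mz_DHet median in each. The calls held without each single library of mz_DHet and of the knockout. On 15 July 2022, 4 mz_DHet embryos were at 19.2 to 40.1 TPM and 3 mz_NrKO embryos at 63.8 to 78.7, without overlap, a difference of 1.39 (adjusted p = 0.0391). On 8 March the means were 68.6 in mz_DHet, 120.2 in mz_NrKO and 134 in mz_DKO, differences of 0.83 (adjusted p = 0.0236) and 1.03 (adjusted p = 0.00108). In 8C mz_DHet Rif1 was lower than at 4C in the stage series, and its 8C mz_DKO median of 131 TPM lay between the mz_DHet medians of 4C (184) and 8C (53.8).

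Dclre1b was at 4.16, 15.2 and 101 TPM in mz_DHet, 5.96, 12.1 and 36.7 in mz_EKO, 4.3, 23.9 and 43 in mz_NrKO and 11.9, 18.4 and 186 in mz_DKO. It rose by 0.90 ± 0.36 in mz_DKO (adjusted p = 0.0468; 7 of 10 above the mz_DHet median) and differed by -0.02 ± 0.36 (adjusted p = 0.978) in mz_NrKO. The mz_DKO call was close to the threshold: without mz_DKO replicate 1 the difference was 0.69 (adjusted p = 0.155), and on 8 March 2022 it was 0.75 (adjusted p = 0.0711). It also ended without any of mz_DKO replicates 5, 8 and 10 or mz_DHet replicates 1, 4, 5, 6, 7, 10, 11, 14, 16, 18 and 21. Hnrnpa1 was at 1160.1, 1359 and 3837 TPM in mz_DHet, 1259, 1447 and 2877 in mz_EKO, 771, 1108 and 2163 in mz_NrKO and 914, 1138 and 2163 in mz_DKO. It fell by 0.40 ± 0.10 in mz_NrKO (adjusted p = 0.00257; 6 of 10 below the mz_DHet median) and by 0.27 ± 0.11 in mz_DKO (adjusted p = 0.0463; 7 of 10). On 8 March these were -0.46 (adjusted p = 0.00493) and -0.25 (adjusted p = 0.0749), and on 15 July mz_NrKO differed by -0.21 (adjusted p = 0.619). The mz_DKO call of Hnrnpa1 ended without any of mz_DKO replicates 1, 2, 3, 4, 5, 6 and 10 or mz_DHet replicates 1, 4, 5, 7, 11, 13, 14, 16 and 18.

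The CST genes were not called in the 8C knockouts: in mz_NrKO Ctc1 differed by 0.37 ± 0.27 (adjusted p = 0.327), Stn1 by 0.47 ± 0.22 (adjusted p = 0.101) and Ten1 by -0.28 ± 0.21 (adjusted p = 0.34). Neither were the inhibitors and their regulators Pinx1 (-0.09 ± 0.17, adjusted p = 0.745), Pif1 (0.27 ± 0.42, adjusted p = 0.674), Tnks (0.11 ± 0.23, adjusted p = 0.76) and Tnks2 (0.32 ± 0.22, adjusted p = 0.28), nor Smg6 (0.21 ± 0.20, adjusted p = 0.477), Rtel1 (0.13 ± 0.22, adjusted p = 0.716), Shq1 (-0.11 ± 0.25, adjusted p = 0.783) and Atrx (-0.10 ± 0.20, adjusted p = 0.756).

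Without the library labelled 8C mz_NrKO replicate 1, 5 members rose and 6 fell of 31 (32.5% of all genes were called). Terf2 (0.64, adjusted p = 0.0388), Tinf2 (0.37, adjusted p = 0.0485) and Wrap53 (0.55, adjusted p = 0.0157) were added, and Nop10 was at 0.48 (adjusted p = 0.051). Rif1 was then at 0.96 (adjusted p = 0.000897), Naf1 at -1.02 (adjusted p = 0.00052) and Dkc1 at -0.60 (adjusted p = 0.0153). Without 8C mz_DHet replicate 1, 2 members rose and 5 fell in mz_NrKO (28.5% of all genes), and 3 rose and 4 fell in mz_DKO (34.2%). The calls lost were Dkc1 at -0.45 (adjusted p = 0.05003) and Nop10 at 0.46 (adjusted p = 0.0565) in mz_NrKO, and Dclre1b at 0.74 (adjusted p = 0.0787) and Hnrnpa1 at -0.24 (adjusted p = 0.0711) in mz_DKO. Under median-of-ratios scaling 3 of 30 rose and 4 fell in mz_NrKO (29.5% of all genes called), and 3 rose and 5 fell in mz_DKO (34.2%).

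Stage and oocyte markers moved with these groups at 8C. The sum of 8 markers of the 8-cell stage was 3354, 4381 and 7806 TPM in mz_DHet, 1769, 2535 and 6098 in mz_NrKO and 1657, 2469 and 2797 in mz_DKO. Of these 8 genes 4 fell in mz_NrKO and 7 in mz_DKO. The sum of 8 markers of the 2-cell stage was 1.58, 25.3 and 134 TPM in mz_DHet. It was 18.4, 201 and 887 in mz_NrKO and 117, 220 and 1846 in mz_DKO. Of these markers 3 could be tested, and they were called higher in both knockouts. A gene low in mz_DHet can reach the level needed for a test through knockout embryos alone, so that count adds no separate support. Zscan4c and Zscan4d were listed at 0 in all mz_DHet and mz_EKO embryos. In mz_EKO the sums were 3791, 4519 and 5933 TPM for the 8-cell and 13.9, 28.1 and 87.8 TPM for the 2-cell markers. The sum of 7 oocyte markers was 3.76, 25.7 and 62.9 TPM in mz_DHet, 4.72, 19.1 and 41.6 in mz_EKO, 11.6, 59.4 and 154 in mz_NrKO and 22.8, 105 and 152 in mz_DKO. Zp3, a zona pellucida gene and the 1 oocyte marker that could be tested, rose by 1.36 in mz_NrKO (adjusted p = 0.00503) and by 2.27 in mz_DKO (adjusted p = 4.56e-06). The same limit of the level needed for a test holds for this marker. The part of these markers in the changes of the telomere genes was not tested.

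The knockouts were also compared with each other. Between mz_DKO and mz_NrKO limma called 0 of 31 members (0.147% of all genes), and 1, Dclre1b, had an unadjusted p under 0.05 (0.92 ± 0.43, adjusted p = 0.468). Between mz_NrKO and mz_EKO 3 members were higher and 5 lower in mz_NrKO, 25.8% of 31 beside 22.7% of all genes (10.9% higher and 11.8% lower). Higher were Rif1 (0.88 ± 0.27, adjusted p = 0.0151), Tep1 (1.11 ± 0.41, adjusted p = 0.0455) and Nop10 (0.69 ± 0.22, adjusted p = 0.0187). Lower were Naf1 (-0.87 ± 0.27, adjusted p = 0.0138), Acd (-0.56 ± 0.19, adjusted p = 0.027), Hnrnpa1 (-0.53 ± 0.13, adjusted p = 0.0015), Ruvbl2 (-0.49 ± 0.15, adjusted p = 0.0167) and Nhp2 (-0.41 ± 0.11, adjusted p = 0.0032). The call of Acd ended without mz_NrKO replicate 4, that of Nop10 without replicate 5 or 7, and that of Tep1 without any of replicates 2, 4, 5, 6 and 9. Without replicate 1, 6 were higher and 7 lower (27% of all genes), with Dkc1, Ten1, Terf2, Tinf2 and Wrap53 added. Median-of-ratios scaling gave 5 higher and 4 lower of 30 (23.9% of all genes called).

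Whether a knockout effect differed between 8C and L2C was tested in a joint fit of L2C, 4C and 8C. For mz_NrKO 0 of 32 members were called (1.95% of all genes; 6 at an unadjusted p under 0.05 by limma), for mz_EKO 0 (0%; 0) and for mz_DKO 1, lower (3.12%, beside 5.65% of all genes, 3.72% higher and 1.93% lower). That gene was Hnrnpa1, with mz_DKO differences from mz_DHet of 0.79 ± 0.33 at L2C and -0.27 ± 0.11 at 8C, and a difference of -1.11 ± 0.33 between stages in the joint fit (adjusted p = 0.0248). The 9 members called in 8C mz_NrKO and not at L2C are therefore not shown to respond at 8C alone.

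Reads with a unique molecular identifier (UMI), which come from transcript 5′ ends of the same embryos' libraries and are not independent samples, gave a second value per gene at 8C for 16 mz_DHet, 5 mz_NrKO, 9 mz_EKO and 9 mz_DKO embryos. In mz_NrKO 4 members rose and 1 fell of 29 tested (25.4% of all genes were called). These were Tep1 (1.57, adjusted p = 0.00787), Rif1 (0.84, adjusted p = 0.0166), Rtel1 (0.89, adjusted p = 0.0173), Tnks2 (0.81, adjusted p = 0.0312) and Nhp2 (-0.36, adjusted p = 0.00267). In mz_DKO 5 rose and 2 fell (34.6% of all genes): Rif1 (1.17, adjusted p = 3.74e-05), Tep1 (1.22, adjusted p = 0.00751), Dclre1b (0.84, adjusted p = 0.0151), Terf2 (0.52, adjusted p = 0.0414), Tinf2 (0.45, adjusted p = 0.0242), Nhp2 (-0.31, adjusted p = 0.000999) and Ruvbl2 (-0.37, adjusted p = 0.0156). All 9 members called from full-length reads kept their sign in each knockout, and 3 in mz_NrKO and 6 in mz_DKO were called in both. The 8C embryos with UMI values are dated 23 February or 8 March 2022, so those of 15 July are not part of this comparison. In mz_EKO 0 were called (0.0112% of all genes), as from full-length reads. The plot of UMI against full-length differences shows each gene.

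**Figure D5:**
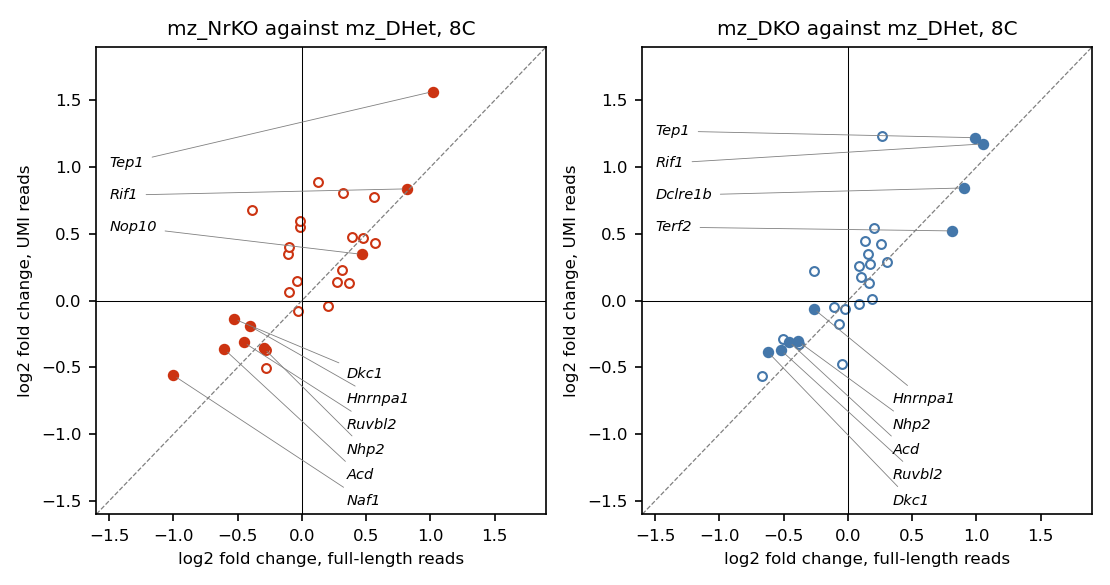
Log2 difference from mz_DHet at 8C in UMI reads (y axis) against full-length reads (x axis) for mz_NrKO and mz_DKO; each point is a member tested in both, filled where called in full-length reads. The filled points lie in the lower left or upper right, with Nhp2 at -0.36 and Rif1 at 0.84 in the UMI reads of mz_NrKO.

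The authors' deposited table, at a false discovery rate under 0.1, lists 4 members higher (Terf2, Nop10, Stn1 and Rif1) and 5 lower (Acd, Dkc1, Naf1, Ruvbl2 and Hnrnpa1) in 8C mz_NrKO. For 8C mz_DKO the authors' deposited table lists Terf2, Tnks2, Dclre1b and Rif1 higher and Terf2ip, Acd, Dkc1, Nhp2, Ruvbl2 and Hnrnpa1 lower, and for 8C mz_EKO it lists 0.

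Wider lists of genes that act at telomeres were read beside the members, against the same 28.3% and 33.7% of all genes called. Of 22 tested genes of telomere replication and repair, 4 rose and 5 fell in 8C mz_NrKO and likewise 4 and 5 in mz_DKO, with median log2 differences of -0.06 and -0.14. Samhd1, a nucleotide hydrolase that limits telomere lengthening, was at 119 ± 63.5 TPM against 27 ± 17.2 TPM (log2 difference 2.07 in mz_NrKO and 2.79 in mz_DKO). Parp1, a DNA damage sensor, was at 117 ± 49.1 TPM against 299 ± 90.5 TPM (-1.35 and -1.17), and Prim1, the primase subunit that works with CST, rose by 0.79 and 0.78. Of 17 genes that process telomerase RNA or carry telomerase, 5 rose and 1 fell in mz_NrKO and 6 rose and 2 fell in mz_DKO, with medians of 0.04 and 0.13. They include Parn, which trims the RNA (0.53 and 0.62), Pabpn1 (0.54 and 0.73) and Zcchc8, a targeting factor of the exosome (0.69 and 1.03).

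Of 16 chromatin and repeat-binding factors, 1 rose (Nr2c2, 0.84) and 1 fell (Cbx5, -0.53) in 8C mz_NrKO, and 1 rose in mz_DKO (Smchd1, 1.30), with medians of -0.11 and 0.05. Of 4 genes of meiotic telomere attachment, Sun1, which ties telomeres to the nuclear envelope, fell from 276 to 84 TPM in mz_NrKO (-1.84; -1.67 in mz_DKO). Majin fell too (-1.09 and -1.17) and Cdk2 rose (0.90 and 1.52). Of the 2-cell genes tied to telomere lengthening in mouse, the 2 that could be tested at 8C rose: Tcstv3 was at 77.6 ± 65.3 TPM against 11.4 ± 9.86 TPM (2.43 and 3.12) and Tcstv1 differed by 1.72 and 2.95. Here too, genes low in mz_DHet can reach the level needed for a test through knockout embryos. In 8C mz_EKO 0 genes of any of the 5 lists were called. At E2C the same 2-cell list went the other way: all 8 fell in mz_NrKO (5.17% of all genes were called there, 4.5% lower), with a median difference of -2.73. Zscan4e was at 49.3 ± 67.8 TPM against 275 ± 207 TPM there, Zscan4c at 49 ± 53.8 TPM against 237 ± 192 TPM and Zscan4b at 35.6 ± 55 TPM against 211 ± 180.4 TPM. The mz_NrHet means include the embryos of 11 January, a date without mz_NrKO embryos, so these means are not matched for date. The Zscan4 genes are near-identical copies whose reads the counting may have split. The other lists had 0 up and 1 down of 23 (Blm, -0.38), 0 and 1 of 15 (Nop56, -0.62), 0 and 2 of 17 (H3f3a, -0.41, and Cbx1, -0.23) and 0 of 6 in E2C mz_NrKO, against the same 4.5% of all genes lower.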

How the data were processed

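Polyadenylated RNA of single oocytes and embryos was sequenced with a protocol derived from FLASH-seq, with genotyping primers present at cDNA amplification, per the labels' protocols. The authors deposited expression as TPM per gene, 1 column per library, for full-length reads (263 libraries) and for UMI reads (110 libraries). Reads were processed with cutadapt, STAR, RSEM and DESeq2 on mm10, per the submitters' processing notes, with no versions. A deposited table of the authors' own comparisons gives log2 fold changes and false discovery rates (adjusted p-values), and per the file headers they called genes above 10 TPM at 1.5-fold and a rate under 0.1. TPM are not counts and keep no depth, so the read depth behind a value is unknown. From the deposited values, 65 entries without a gene name were left out, and log2(TPM + 1) was fitted with limma 3.58.1 (R 4.3.3) with empirical Bayes variances and a mean trend. Each stage was fitted over all its groups with date as a term, on genes reaching 5 TPM in no fewer libraries than its smallest group holds, with two-sided tests and Benjamini-Hochberg adjustment over all genes tested. Stage steps used the control groups without date, at an adjusted p under 0.05 and at least 2-fold. Knockout effects at L2C and 8C were compared in a joint fit of L2C, 4C and 8C with date. Alternatives were a pseudocount of 0.1 TPM, no filter, median-of-ratios scaling, no date, replicate number as a block, single dates, UMI reads, other control groups and leaving out libraries. The steps were tested on simulated data with known changes.

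The members and the wider lists were chosen with earlier results of these data known. Named in full are members called in a knockout comparison or changed at least 4-fold in a stage step; from the wider lists, counts and up to 3 called genes per comparison. Positions are GENCODE annotation on GRCm38, and promoter windows are from RefSeq on GRCm38.p6.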

Additional observations from a re-analysis of the deposited data

Results flagged for a closer look

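In groups of 4 to 10 libraries, a library was picked out when its gap to the nearest other exceeded the critical share of the group's range at the 95% level. Of 48 group and gene combinations 7 were picked out. The 95% level assumes normally distributed values and was applied to untransformed TPM, so the number expected by chance is not known here. In 8C mz_DKO, replicate 1 had 186 TPM of Dclre1b against 11.9 to 56 in the other 9, and 2163 TPM of Hnrnpa1 against 914 to 1476. In 8C mz_NrKO, replicate 1 had 2163 TPM of Hnrnpa1 against 771 to 1435, replicate 10 had 321 TPM of Nop10 against 31.4 to 139, and replicate 2 had 70.01 TPM of Tep1 against 3.43 to 28.1. In 8C mz_EKO, replicate 1 had 104 TPM of Nop10 against 21.6 to 51.6. In L2C z_NrHet, replicate 3 had 101 TPM of Naf1 against 52.9 to 71.5. The 8C replicates 1 named here are the libraries dated 23 February 2022 in these groups, and the mz_DHet embryos of that date had 2761 to 3837 TPM of Hnrnpa1; the part of the date was not tested.

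The effect of mz_DKO on Hnrnpa1 differed between stages, by -1.11 from L2C to 8C in the joint fit (limma adjusted p = 0.0248).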

How the results depend on the processing

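Of 1129 alternative values for 83 gene results, 938 kept their direction and their side of the threshold, 189 lost the call and 2 changed sign: Nop10 in 8C mz_NrKO, -0.025 on 15 July 2022 alone, and Acd from 4C to 8C, -0.25 with date in the fit. Leaving out single libraries at 8C (mz_DHet, mz_NrKO, mz_DKO) and E2C (mz_NrKO, and m_NrKO replicate 2) was chosen after seeing the data. It called 7 to 11 members in 8C mz_NrKO, 6 to 10 in mz_DKO, 6 to 13 in mz_NrKO against mz_EKO, 1 to 3 in E2C mz_NrKO, 0 to 1 in E2C m_NrKO and, without mz_DHet replicate 1, 12 from 4C to 8C.

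Counts of called members changed as follows, each beside the share of all genes called in that setting; the causes were not tested beyond what each setting removes. In oocytes, Nrpp as the control gave 1 (1.2% of all genes). In E2C mz_NrKO (2 reported), a pseudocount of 0.1 TPM gave 1 (4.83%), no filter 0 (1.11%), mz_Nrpp as the control 0 (1.79%), and the single dates 0 on 1 August (2.18%), 1 on 7 November (3.11%) and 0 on 14 November (0%). Rif1 in E2C mz_NrHet against mz_Nrpp was not called, leaving 0 members, with no filter (0.0894%), without date (0.0997%), or on 1 August (0.27%) or 14 November (0.015%). For E2C m_NrKO (0 reported), median-of-ratios scaling gave 1 (3.05%), no date 1 (1.35%), 1 August 1 (1.42%) and 7 November 2 (3.95%). At L2C, leaving out date gave 4 in mz_NrKO (10.8%) and 1 in mz_EKO (2.09%). In 8C mz_NrKO (9 reported), no date gave 5 (20.7%), 15 July alone 1 (6.45%) and UMI reads 5 (25.4%); against mz_EKO (8 reported), UMI reads gave 3 (23.8%). From L2C to 4C (4 reported), no filter gave 2 (4.61%) and date in the fit 0 (0.0221%). Over all genes, the E2C mz_NrKO split of 87 higher and 587 lower became 365 higher of 921 called under median-of-ratios scaling, and no filter gave 411 called instead of 674.

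With replicate number as a block, members called were 4 in 8C mz_NrKO (15.8% of all genes), 4 against mz_EKO (17.2%), 7 in mz_DKO (27.4%), 1 in E2C mz_NrKO (3.51%) and 0 in E2C mz_NrHet against mz_Nrpp (0.0537%). Whether same-numbered libraries share more than a number is not labelled. The lowest correlation of their deviations ran from -0.212 to -0.0057 across comparisons, and the highest from 0.0258 to 0.243. In 8C mz_NrKO against mz_DHet the median was 0.057, with 2 of 9 pairs above 0.1. In 8C mz_DKO against mz_NrKO the median was 0.015, with 3 of 9 pairs above 0.1. TPM keep no depth, so low genes such as Wrn at 8C cannot be given a detection limit.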
